A study of Mus musculus with 12 samples.

Results

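The 6 genes described here, Lcn2, Serpina7, Serpine2, Cpz, Podn and Clec2d, were low in control MIN6 cells and more than 10-fold higher after Pdx1 siRNA in both kinds of RNA that were sequenced. They were chosen by those levels and ratios among 12643 measured genes, so the size of that difference is given below as a description, without a test. A seventh gene, Hpx, met the same values, and the 6 are therefore not every gene that does. The libraries came from MIN6, a mouse insulinoma line widely used in place of primary beta cells, at passage 29, nucleofected with siRNA and harvested 72 h later. RNA followed the TRAP protocol, translating ribosome affinity purification, in which mRNA is recovered from purified tagged ribosomes. The groups were IP RNA (ribosome-bound) from Pdx1 siRNA cells, IP RNA from cells given a control siRNA called NT, total RNA from Pdx1 siRNA cells and total RNA from NT siRNA cells, with 3 libraries each. Which ribosomal protein carried the tag, and what promoter drove it, is not given in the sources used here. A single Pdx1 siRNA treatment was used per the labels, so loss of Pdx1 and other effects of that siRNA cannot be told apart.

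Pdx1 is the homeodomain transcription factor that maintains insulin gene expression and beta-cell identity in the adult pancreas. Beta cells are professional secretory cells whose output is normally dominated by insulin and a few co-secreted peptides, while plasma proteins such as thyroxine-binding globulin are made mainly in the liver. Of the 6 genes, 5 encode secreted proteins. Lcn2 encodes lipocalin 2, which binds iron-loaded siderophores and is released during inflammation. Serpina7 encodes thyroxine-binding globulin, a serpin that carries thyroid hormone and inhibits no protease. Serpine2 encodes protease nexin 1, a serpin that inhibits thrombin, urokinase and plasmin. Cpz encodes carboxypeptidase Z, a metallocarboxypeptidase with a domain like that of the Frizzled receptors for Wnt. Podn encodes podocan, a small leucine-rich proteoglycan of the extracellular matrix. Clec2d, in contrast, encodes a C-type lectin-related ligand of NKR-P1 receptors that is anchored in the plasma membrane, so the description as secreted does not hold for it.

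The libraries held 29430690 to 45806807 counts over the measured genes. Pdx1 itself reached 50.6, 46.7 and 39.2 CPM (counts scaled by edgeR to a common library size) in Pdx1 siRNA IP libraries, against 104, 115 and 111 CPM in NT IP libraries. It reached 47.6, 57.4 and 47.9 CPM in Pdx1 siRNA total RNA, against 118, 123 and 110 CPM in NT total RNA. The knockdown was thus partial, with a log2 fold change of -1.27 ± 0.10 in IP RNA and -1.20 ± 0.10 in total RNA (SE, edgeR adjusted p = 4.28e-08 and 9.97e-08). All 14 beta-cell markers looked for were measured, which fits the label of the line. No marker of the fibroblast, immune or endothelial lists was among the measured genes, and these lists are not analysed here. The ductal markers Krt7, a keratin, and Spp1, osteopontin, together reached 336 to 417 CPM in Pdx1 siRNA IP libraries against 174 to 182 CPM in NT IP libraries, and 277 to 331 CPM in Pdx1 siRNA total RNA against 139 to 146 CPM in NT total RNA. Of 9 hepatocyte markers 3 were measured (Ahsg, Alb and Serpina1a), summing to 4.74 to 5.22 CPM in Pdx1 siRNA IP libraries against 3.02 to 3.51 CPM in NT IP libraries, and to 5.71 to 6.92 CPM in Pdx1 siRNA total RNA against 2.72 to 3.27 CPM in NT total RNA. These markers did not move together. Alb rose by log2 1.28 in IP and 1.30 in total RNA, and Serpina1a by 0.83 and 1.55. Ahsg stood at log2 -0.08 in IP and -0.02 in total RNA (edgeR adjusted p = 0.735 and 0.960). Serpina1a has near-identical copies, so its reads are less certain. The part of such cells in the levels of the 6 genes was not tested, and in bulk RNA more cells of a type and more RNA per cell cannot be told apart. The NT IP libraries were the least alike of the 4 groups: over all genes log2 CPM correlated at r = 0.9965 between replicates 1 and 2, but at 0.9857 and 0.9852 between each of these and replicate 3. At Rpl32l, a ribosomal protein L32-like gene singled out after its values were seen, NT IP replicates 1 and 2 also stood apart from the Pdx1 siRNA IP libraries, with 33, 37 and 22 counts in Pdx1 siRNA IP libraries against 1726, 1260 and 29 counts in NT IP libraries. Total RNA libraries held 728, 838 and 699 counts of Rpl32l with Pdx1 siRNA and 932, 957 and 1131 counts with NT siRNA. The cause was not tested, and NT IP replicates 1 and 2 enter the comparisons of NT IP with NT total RNA below. For each of the 6 genes 0% of the transcript matched another annotated transcript at 95% identity or more over 100 bases, and none shared exon bases with another gene. Clec2d came close to that limit, with 93.98% identity to Clec2j over 415 of its 1213 bases, and its reads are less certain. Whether the replicates came from separate cultures is not stated, and the p-values below therefore describe the spread among the sequenced libraries alone, part of which can be technical.

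The 6 genes lie on 6 different chromosomes (build mm10, GRCm38.p6). Lcn2 spans chromosome 2 from 32384637 to 32387739, Serpina7 chromosome X from 139079249 to 139085236, Serpine2 chromosome 1 from 79794317 to 79858665, Cpz chromosome 5 from 35502218 to 35525626 and Podn chromosome 4 from 108014793 to 108031954, all on the minus strand. Clec2d lies on the plus strand of chromosome 6 from 129180615 to 129186535. Their promoters differ widely in composition, which the 250 bases before the transcription start of 4 of them show, taken from RefSeq and written 5′ to 3′ on the gene's strand with CpG dinucleotides in capitals. The Serpine2 window is chr1:79858666-79858915, the Podn window chr4:108031955-108032204, the Lcn2 window chr2:32387740-32387989 and the Serpina7 window chrX:139085237-139085486, all minus strand.
Serpine2: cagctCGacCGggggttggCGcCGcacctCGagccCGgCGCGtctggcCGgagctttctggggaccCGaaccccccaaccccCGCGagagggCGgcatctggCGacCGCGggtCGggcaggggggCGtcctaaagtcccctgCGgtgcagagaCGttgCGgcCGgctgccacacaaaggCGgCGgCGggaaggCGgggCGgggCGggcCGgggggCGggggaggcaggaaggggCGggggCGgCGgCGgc
Podn: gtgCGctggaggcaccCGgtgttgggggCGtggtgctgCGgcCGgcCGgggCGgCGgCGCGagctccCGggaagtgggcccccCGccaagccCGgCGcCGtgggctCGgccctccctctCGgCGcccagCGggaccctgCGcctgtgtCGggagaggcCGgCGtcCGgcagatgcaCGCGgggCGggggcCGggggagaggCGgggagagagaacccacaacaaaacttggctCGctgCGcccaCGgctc
Lcn2: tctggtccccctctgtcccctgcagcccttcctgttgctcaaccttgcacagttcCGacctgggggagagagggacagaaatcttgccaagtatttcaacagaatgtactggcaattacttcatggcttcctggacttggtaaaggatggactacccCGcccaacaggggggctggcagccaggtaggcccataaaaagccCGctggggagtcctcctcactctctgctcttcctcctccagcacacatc
Serpina7: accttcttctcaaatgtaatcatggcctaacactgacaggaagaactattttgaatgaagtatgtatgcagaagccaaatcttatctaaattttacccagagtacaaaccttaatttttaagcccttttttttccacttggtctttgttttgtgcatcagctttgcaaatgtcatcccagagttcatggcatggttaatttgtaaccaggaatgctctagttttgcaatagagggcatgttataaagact

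Serpine2 and Podn had CpG-dense promoters with 34 and 32 CpG dinucleotides and a GC content of 78.8% and 78.0%. That was more CpG than in 93.5% and 91.4% of the 10081 measured genes with a promoter entry, whose median was 16 CpG and 60.0% GC. Cpz held 8, Clec2d 4 and Lcn2 3 CpG, and Serpina7 held none at a GC content of 36.0%. The same 250 bases were searched on both strands for short motifs. The 6-base homeodomain site TAATTA occurred in 0 of the 6 promoters and in 2.18% of all 10081. The shorter homeodomain core TAAT was not searched for. The Serpina7 window printed above contains it, and the Lcn2 window contains it on the opposite strand. The Clec2d window, which is not printed, also contains it on the opposite strand. The string TATAAA, searched for the TATA box, occurred in Serpina7 alone, beginning 10 bases before the start, and in 5.90% of all. Whether it acts as a TATA box at that position was not tested, and TATA boxes of other spelling were not searched for. The E box CANNTG, a palindrome, occurred in 5 of the 6 (not in Lcn2) and in 56.5% of all. CCAAT was present in Clec2d alone and in 37.1% of all, and TGACG, the half-site of the cyclic AMP response element, in Cpz alone and in 28.0% of all. A p53 half-site occurred in Cpz and in 5.93% of all. Matches to kappaB (8.84% of all), AP-1 TGANTCA (3.88%) and STAT TTCNNNGAA (5.76%) occurred in 0 of the 6. The string TTGCNNCAA, searched for C/EBP, also occurred in 0 of the 6 and in 1.31% of all. C/EBP sites with another spacing were not searched for, so that result does not show whether the windows hold a C/EBP site. No motif searched was shared by all 6 windows.

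Lcn2 was the gene with the highest fold change of all 12643 in both fractions. It reached 70.5, 65.9 and 118 CPM in Pdx1 siRNA IP libraries, against 3.39, 2.92 and 3.17 CPM in NT IP libraries. In total RNA it reached 21.4, 20.9 and 33.8 CPM with Pdx1 siRNA, against 1.07, 1.20 and 1.55 CPM with NT siRNA. The groups lay far apart in each fraction, and Pdx1 siRNA replicate 3 stood above the other Pdx1 siRNA libraries in both. The ratio of Pdx1 to NT siRNA was 26.8-fold in IP RNA (log2 4.74 ± 0.25, SE) and 19.7-fold in total RNA (log2 4.30 ± 0.27).

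The serpins showed smaller ratios than Lcn2 and different levels from each other. Serpina7 held 12.3, 13.04 and 13.3 CPM in Pdx1 siRNA IP libraries, against 0.980, 0.803 and 0.729 CPM in NT IP libraries. It held 11.8, 11.9 and 13.2 CPM in Pdx1 siRNA total RNA, against 0.787, 0.590 and 0.629 CPM in NT total RNA. These were the tightest replicates of the set after Pdx1 siRNA, with a coefficient of variation of 4.04% in IP and 6.69% in total RNA. The ratio of Pdx1 to NT siRNA was 15.3-fold in IP (log2 3.93 ± 0.12) and 18.5-fold in total RNA (log2 4.21 ± 0.12). Serpine2 stood at 71.7, 68.0 and 82.9 CPM in Pdx1 siRNA IP libraries, against 4.48, 4.85 and 4.94 CPM in NT IP libraries. In total RNA it stood at 33.1, 35.0 and 42.6 CPM with Pdx1 siRNA, against 2.06, 2.13 and 2.99 CPM with NT siRNA. Its groups did not overlap in either fraction, at ratios of 15.6-fold in IP (log2 3.96 ± 0.13) and 15.3-fold in total RNA (log2 3.93 ± 0.14).

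Cpz and Podn, the carboxypeptidase and the matrix proteoglycan, were separated in the same way. Cpz held 15.6, 13.5 and 17.4 CPM in Pdx1 siRNA IP libraries, against 0.954, 1.04 and 1.12 CPM in NT IP libraries. It held 11.8, 14.2 and 17.02 CPM in Pdx1 siRNA total RNA, against 0.965, 0.675 and 1.04 CPM in NT total RNA. No NT library came near a Pdx1 siRNA library, and the ratio was 14.9-fold in IP (log2 3.89 ± 0.17) and 16.0-fold in total RNA (log2 4.002 ± 0.17). Podn held 35.1, 30.5 and 37.0 CPM in Pdx1 siRNA IP libraries, against 2.17, 2.35 and 2.78 CPM in NT IP libraries. In total RNA it held 18.9, 23.4 and 25.9 CPM with Pdx1 siRNA, against 1.68, 2.05 and 2.34 CPM with NT siRNA. Its ratio was 14.1-fold in IP (log2 3.81 ± 0.14) and 11.2-fold in total RNA (log2 3.48 ± 0.14), again with no overlap of libraries. Clec2d, the membrane ligand, held 23.3, 23.1 and 28.0 CPM in Pdx1 siRNA IP libraries, against 1.91, 1.73 and 2.16 CPM in NT IP libraries. It held 11.97, 10.6 and 13.7 CPM in Pdx1 siRNA total RNA, against 1.37, 0.928 and 1.18 CPM in NT total RNA. Its ratios, 12.8-fold in IP (log2 3.68 ± 0.14) and 10.5-fold in total RNA (log2 3.39 ± 0.15), were the lowest of the 6.

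**Figure D1:**
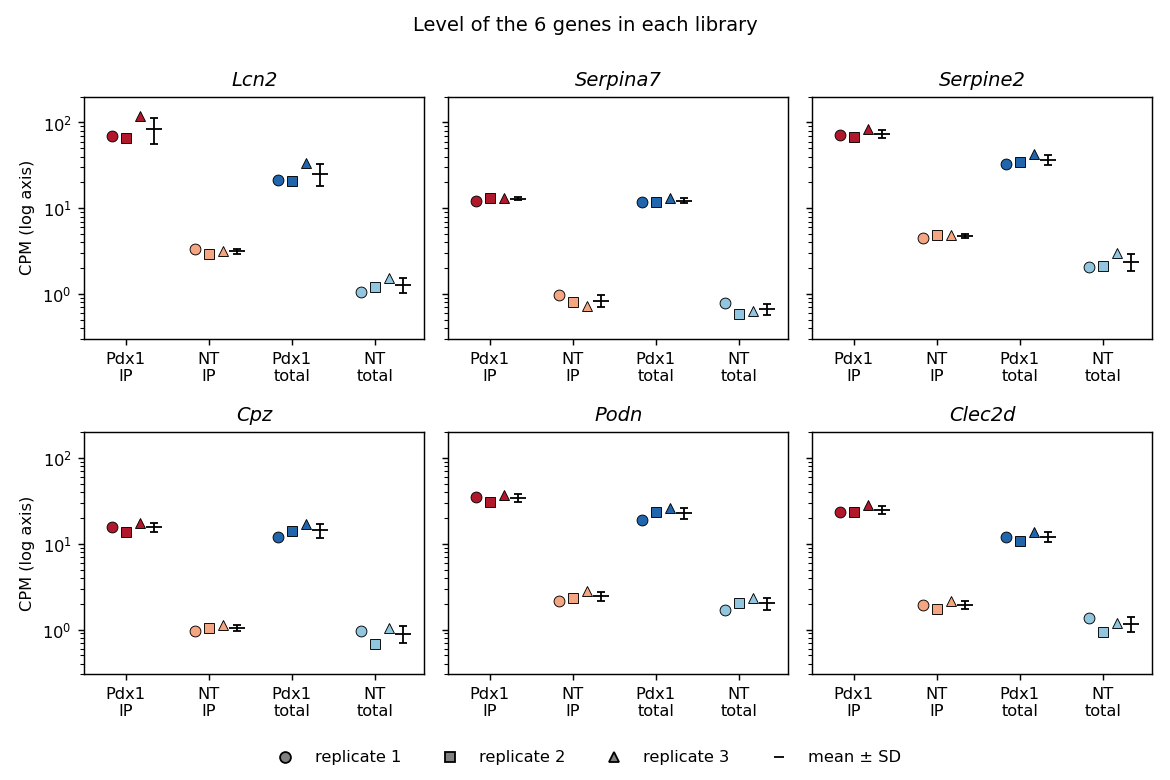
CPM on a log axis for the 6 genes in each library of Pdx1 and NT siRNA IP RNA and Pdx1 and NT siRNA total RNA, with the mean and SD of 3 libraries. For every gene the Pdx1 siRNA libraries sit above 10 CPM and the NT libraries below 5 CPM, in IP and in total RNA.

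The low NT levels rested on few counts but were not zero, so the genes were low rather than off in control cells. Serpina7 held 26 to 37 counts per NT IP library and 28 to 32 per NT total library, where counting error alone is 18.3% and 18.2% of the mean. Cpz held 35 to 40 and 32 to 53 counts in the same groups. The other 4 genes held 42 to 176 counts per NT library. After Pdx1 siRNA each of the 6 held 293 counts or more in every library. Within the Pdx1 siRNA group, replicate 3 was the highest library for 6 of 6 genes in IP and for 6 of 6 in total RNA. Without the scaling factors, which were 0.81, 0.866 and 0.752 in Pdx1 siRNA IP libraries and 1.07, 1.02 and 0.9501 in Pdx1 siRNA total libraries, replicate 3 was the highest for 4 of 6 in IP and 6 of 6 in total RNA.

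Over all genes, 11 (0.087%) were more than 10-fold higher with Pdx1 than with NT siRNA in IP RNA and 7 (0.0554%) were so in total RNA. The same 7, or 0.0554%, passed 10-fold in both. The seventh beside the 6 was Hpx, which encodes the heme-binding plasma protein hemopexin. At 11.3-fold in total RNA it stood above Podn and Clec2d, and it averaged 5.89 CPM in Pdx1 siRNA IP RNA against 0.493 CPM in NT IP RNA, and 8.56 CPM in Pdx1 siRNA total RNA against 0.759 CPM in NT total RNA. Its mean over the 12 libraries, 3.93 CPM, was below that of each of the 6. Counting those that averaged 5 CPM or more, the genes just below the limit in total RNA were Olfm3 at 9.49-fold, Pnliprp2 at 9.39-fold, Sstr1 at 9.21-fold and Agt at 9.10-fold, against 10.5-fold for Clec2d just above it. In IP RNA Phlda3 (11.3-fold), St14 (11.2-fold), Dglucy (10.2-fold) and Pnliprp2 (10.1-fold) were inside the limit and Pla2g2f (9.46-fold) was next outside it. The ratios of these genes thus come close to the lowest of the 6. The libraries of the siRNAs did not overlap for 6 of 6 genes in either fraction, a separation that 32.3% of all genes showed with Pdx1 siRNA higher in IP RNA and 26.1% in total RNA, and from which nothing can be read here since these values chose the genes.

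Per kilobase of transcript, the 6 genes differed from each other more than their ratios did. In Pdx1 siRNA IP RNA, Lcn2 averaged 92.6 ± 31.5 CPM per kb (SD, n = 3), Serpine2 33.6 ± 3.52, Clec2d 20.5 ± 2.30, Podn 10.8 ± 1.06, Cpz 6.89 ± 0.858 and Serpina7 5.53 ± 0.223, and no neighbours in that order overlapped. In NT IP RNA the order was the same at 3.45 ± 0.260 CPM per kb for Lcn2, 2.15 ± 0.110 for Serpine2, 1.59 ± 0.180 for Clec2d, 0.767 ± 0.0979 for Podn, 0.463 ± 0.0374 for Cpz and 0.359 ± 0.0553 for Serpina7, also without overlap. Total RNA kept this order in both groups, with Lcn2 at 27.7 ± 7.99 CPM per kb and Serpina7 at 5.28 ± 0.353 with Pdx1 siRNA, against 1.39 ± 0.274 and 0.287 ± 0.0448 with NT siRNA. There, libraries of Podn and Cpz and of Cpz and Serpina7 overlapped with Pdx1 siRNA, and those of Lcn2 and Serpine2, of Serpine2 and Clec2d and of Cpz and Serpina7 overlapped with NT siRNA. Set against the 12524 genes with a transcript length, Lcn2 in total RNA lay above 85.5% of genes with Pdx1 siRNA and above 15.7% with NT siRNA. Serpina7, the lowest of the 6, lay above 46.0% of genes with Pdx1 siRNA and above 2.86% with NT siRNA.

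The ratio of IP to total RNA under each siRNA, which the choice of genes did not use directly, passed the test for some of the 6 genes and not for others. With Pdx1 siRNA, 4 of the 6 genes were higher in IP than in total RNA: Lcn2, Clec2d, Serpine2 and Podn. With NT siRNA, 3 of the 6 were: Lcn2, Serpine2 and Clec2d. Over all genes 36.3% passed this test in the same direction with Pdx1 siRNA and 33.8% with NT siRNA, so the counts of members are above that share but rest on few genes. A ratio of this kind is relative to the average gene of the libraries, whose median log2 ratio was -0.02 under either siRNA.

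Lcn2 had the highest ratio, 3.34-fold with Pdx1 siRNA (log2 1.74 ± 0.20, SE, edgeR adjusted p = 1.55e-06) and 2.45-fold with NT siRNA (log2 1.29 ± 0.32, adjusted p = 0.0019). Those ratios were above those of 99.9% and 99.8% of genes. Serpine2 was about as far above total RNA under both siRNAs, at log2 1.01 ± 0.11 with Pdx1 siRNA (edgeR adjusted p = 9.64e-07) and 0.98 ± 0.15 with NT siRNA (adjusted p = 4.37e-05). Clec2d stood at log2 1.04 ± 0.11 with Pdx1 siRNA (edgeR adjusted p = 4.84e-07) and 0.75 ± 0.18 with NT siRNA (adjusted p = 0.00184). For these 3 genes every IP library lay above every total RNA library under both siRNAs, as it did for 31.1% of all genes (35.7% with Pdx1 siRNA and 37.3% with NT siRNA taken alone). Podn passed with Pdx1 siRNA at log2 0.59 ± 0.11 (edgeR adjusted p = 0.000229) but not with NT siRNA at 0.25 ± 0.17 (adjusted p = 0.205), where its libraries overlapped. Serpina7 and Cpz did not pass under either siRNA. Serpina7 stood at log2 0.07 ± 0.09 with Pdx1 siRNA (edgeR adjusted p = 0.489, 95% interval -0.10 to 0.24) and 0.34 ± 0.18 with NT siRNA (adjusted p = 0.137, -0.01 to 0.69). Cpz stood at log2 0.11 ± 0.13 with Pdx1 siRNA (edgeR adjusted p = 0.454, -0.14 to 0.36) and 0.22 ± 0.24 with NT siRNA (adjusted p = 0.435, -0.25 to 0.68). Whether the members differ from each other in this ratio was not tested.

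**Figure D2:**
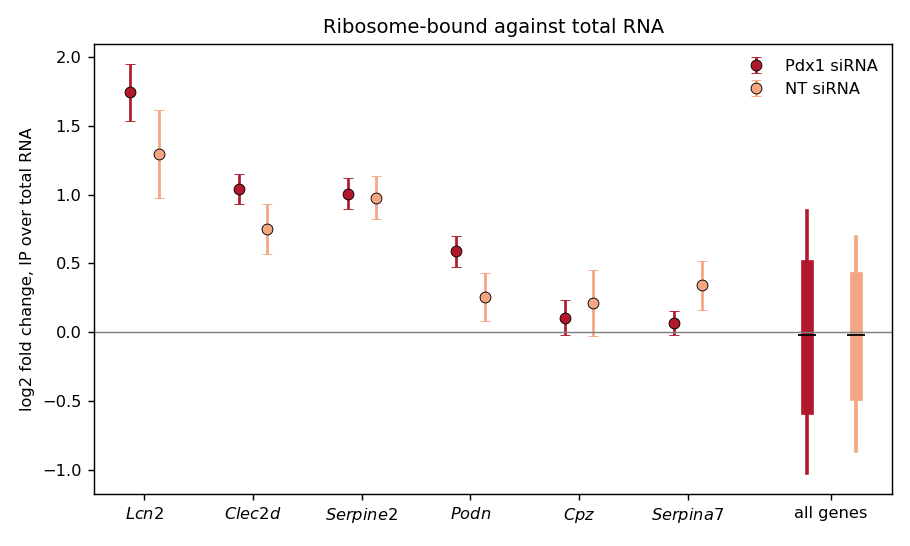
log2 fold change of IP over total RNA with its standard error for the 6 genes under Pdx1 and NT siRNA; at the right, bars span the 25th to 75th and thin lines the 10th to 90th percentile of all genes, with a dash at the median. Lcn2, Clec2d and Serpine2 lie at 0.75 or higher under both siRNAs, and Cpz and Serpina7 at 0.34 or lower.

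The change of the IP to total ratio with Pdx1 siRNA, tested as an interaction, was called for 0 of the 6 genes by edgeR and for 0 by DESeq2, and 0 had an unadjusted p under 0.05. This change equals the difference between the siRNA ratios in IP and in total RNA, by which the genes were chosen. The choice required a high ratio in both fractions, so nothing about the 6 genes is read from these counts of 0. Over all genes 29 (0.229%) were called by edgeR and 327 by DESeq2, and edgeR called 4 to 571 with single libraries left out and 373 with the replicate number as a block, so the number of genes with such a change is uncertain. The estimates were log2 0.45 for Lcn2 (95% interval -0.30 to 1.19), 0.33 for Podn (-0.07 to 0.74), 0.30 for Clec2d (-0.12 to 0.72), 0.03 for Serpine2 (-0.36 to 0.42), -0.11 for Cpz (-0.64 to 0.42) and -0.27 for Serpina7 (-0.66 to 0.11). The edgeR adjusted p ran from 0.433 for Podn to 0.955 for Serpine2. These intervals leave room for changes of the ratio in either direction for each of the 6 genes.

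The families and pathways around the 6 genes were examined gene by gene, and since the 6 were chosen for their large ratios, the sizes are not compared with theirs. Among 15 other serpins, 11 rose and 1 fell with Pdx1 siRNA in IP RNA, and 11 rose and 2 fell in total RNA, at median log2 fold changes of 0.65 and 1.00. Over all genes 29.2% rose and 30.4% fell in IP and 23.8% rose and 29.2% fell in total RNA, with medians of -0.01 and -0.04. The 5 near-identical Serpina1a to Serpina1e genes are among those that rose, and their reads may be split uncertainly. Of the remaining 10 serpins 6 rose in each fraction. Serpina10, the protein Z-dependent inhibitor of coagulation, rose most, with 42.7, 40.5 and 50.4 CPM in Pdx1 siRNA IP libraries against 6.04, 5.38 and 5.52 CPM in NT IP libraries (log2 2.98 ± 0.11, edgeR adjusted p = 1.94e-11) and log2 2.84 ± 0.11 in total RNA. Serping1, the C1 inhibitor, rose by log2 1.54 in IP and 1.68 in total RNA. Serpinb8, an intracellular furin inhibitor, fell by 1.64 and 1.49.

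Of 26 other genes of the thrombin, plasmin and urokinase system, which holds the targets and clearance receptors of Serpine2, 15 rose and 5 fell in IP and 16 rose and 5 fell in total RNA (medians 0.34 and 0.41). The list also holds serpins already counted above, among them Serpini1, Serpinb8 and Serpinb9, so the counts of these lists are not separate. St14, the membrane serine protease matriptase, showed the largest change, with 32.9, 26.7 and 38.1 CPM in Pdx1 siRNA IP libraries against 2.73, 2.65 and 3.34 CPM in NT IP libraries (log2 3.48 ± 0.18, edgeR adjusted p = 3.17e-10). Plaur, the urokinase receptor, rose by log2 1.25 in IP and 1.27 in total RNA. Plat, the tissue plasminogen activator that Serpine2 can inhibit, rose by log2 0.54 in IP and 1.03 in total RNA. Lrp1, the receptor that clears serpin-protease complexes, rose by log2 0.80 in total RNA (edgeR adjusted p = 0.00168) and stood at 0.45 in IP RNA, just short of the threshold (adjusted p = 0.0501). It passed in 10 of 22 alternative settings, at an adjusted p of 0.00657 to 0.342 over all of them. Anxa2, which binds plasminogen at the cell surface, fell by 1.77 in IP and 1.93 in total RNA. The proteases F2 and Plau were not analysed here.

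Among 16 other lipocalin and iron genes, 7 rose and 4 fell in IP and 8 rose and 3 fell in total RNA (medians 0.28 and 0.27). Slc22a17, a receptor of lipocalin 2, rose by log2 1.04 in IP and 0.93 in total RNA. Other lipocalins rose as well: Ambp, the precursor of alpha-1-microglobulin, by log2 2.54 in IP and 2.12 in total RNA, and Rbp4, the retinol carrier, by 1.82 and 1.38. Hfe, a regulator of iron uptake, rose by log2 1.40 and 1.21. The partners Lrp2 and Mmp9 were not analysed here.

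Of 12 other metallocarboxypeptidases 6 rose and 0 fell in IP, and 6 rose and 2 fell in total RNA (medians 0.25 and 0.35). Cpe, the prohormone-processing carboxypeptidase of insulin granules, stood at 20331 ± 2184 CPM in Pdx1 siRNA IP RNA against 12222 ± 880 CPM in NT IP RNA (SD, n = 3 each), a log2 fold change of 0.73 (edgeR adjusted p = 7.38e-05), and rose by 0.79 in total RNA. Cpn1, the catalytic subunit of plasma carboxypeptidase N, rose by log2 1.498 in IP and 1.44 in total RNA. Cpq rose by 0.70 and 0.86. Tsku was the only other measured small leucine-rich proteoglycan and rose by log2 0.39 in IP and 0.47 in total RNA. Its IP call was lost without Pdx1 siRNA IP replicate 3 (log2 0.28, edgeR adjusted p = 0.0688) and with NT IP replicates 1 and 2 left out (log2 0.33, adjusted p = 0.155). Of 3 other C-type lectin genes 0 rose, and Clec2l fell by 0.48 in IP and by 0.91 in total RNA. The Clec2l call in IP was lost without NT IP replicate 3 (log2 -0.33, edgeR adjusted p = 0.0609) or without Pdx1 siRNA IP replicate 2 (log2 -0.38, adjusted p = 0.0702). Klrb1f, which encodes a receptor of the NKR-P1 family, was not analysed here.

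The other thyroid hormone carriers, Ttr and Alb, rose as well. In the list of thyroid hormone transport and action 9 of 15 other genes rose and 2 fell in IP and 6 rose and 2 fell in total RNA (medians 0.40 and 0.08). Ttr, the carrier transthyretin, stood at 64854 ± 8156 CPM in Pdx1 siRNA IP RNA against 20219 ± 2097 CPM in NT IP RNA (SD, n = 3 each), a log2 fold change of 1.68 (edgeR adjusted p = 5.03e-08), and rose by 1.43 in total RNA. Alb, the carrier albumin, rose by log2 1.28 and 1.30 and held 0.928 CPM or less in every NT library. Dio1, a deiodinase, rose by 1.07 and 0.86. Thrb, a thyroid hormone receptor, rose by log2 0.89 in IP and 1.09 in total RNA. Its IP call was lost without NT IP replicate 1 (log2 0.73, edgeR adjusted p = 0.0519), without Pdx1 siRNA IP replicate 2 (log2 0.68, adjusted p = 0.0734) and with NT IP replicates 1 and 2 left out (log2 0.85, adjusted p = 0.0961).

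Of 26 NF-kappaB, STAT3 and acute phase genes, the class with which Lcn2 is usually induced, 14 rose and 5 fell in IP and 13 rose and 5 fell in total RNA (medians 0.22 and 0.20). Lbp, the lipopolysaccharide-binding acute phase protein, rose most, by log2 2.40 in IP and 2.86 in total RNA. Il6ra, the interleukin 6 receptor, rose by 1.65 and 1.49, Cfb, complement factor B, by 1.40 and 1.47, and Birc3, a target of NF-kappaB, by 1.10 and 1.17. The Cfb transcript shares 79.5% of its exon bases with an overlapping gene model on its strand. Of 29 Wnt genes, the pathway to which the Frizzled-like domain of Cpz relates, 11 rose and 5 fell in IP and 13 rose and 5 fell in total RNA (medians 0.15 and 0.16). Secreted inhibitors and ligands led them: Wif1 rose by log2 2.35 in IP and 2.48 in total RNA, Dkk3 by 1.499 and 1.55, Wnt4 by 1.62 and 1.31 and Wnt5a by 1.10 and 1.27. Every rise or fall named in these lists passed at an edgeR adjusted p under 0.05.

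**Figure D3:**
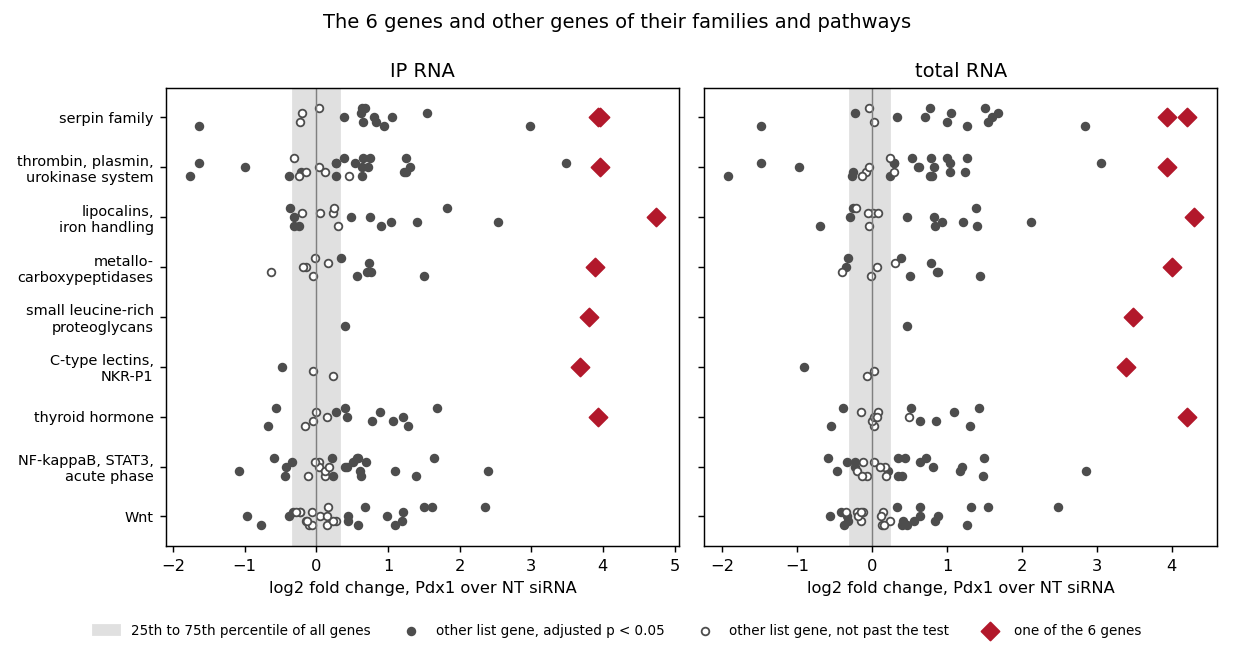
log2 fold change of Pdx1 over NT siRNA in IP RNA (left) and total RNA (right) for the 6 genes (diamonds) and the other measured genes of their families and pathways (circles, filled where the adjusted p is under 0.05), with the 25th to 75th percentile of all genes shaded. The 6 genes lie at 3.39 or higher, and the nearest other list gene, St14, at 3.48 in IP and 3.05 in total RNA.

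The genes whose pattern over the 12 libraries was most like the mean pattern of the 6 were Pnliprp2, St14, Phlda3, Pla2g2f, Agt, Serpina10, Sstr1 and Dglucy. Likeness was the root mean square distance between log2 CPM profiles centred on their means, which was 0.361 for Pnliprp2, a pancreatic lipase-related protein, 0.368 for St14, 0.424 for Phlda3 and 0.462 for Pla2g2f, a secreted phospholipase. It was 0.468 for Agt, angiotensinogen, 0.549 for Serpina10, 0.552 for Sstr1, a somatostatin receptor, and 0.578 for Dglucy. The 6 genes themselves, which made up the mean, lay at 0.176 for Serpine2 to 0.525 for Lcn2. Among them Serpina7 and Cpz were closest to each other at 0.208, and Lcn2 and Serpina7 farthest apart at 0.774. Agt was far more abundant than any of the 6, with 306, 261 and 389 CPM in Pdx1 siRNA IP libraries, against 30.5, 34.2 and 37.0 CPM in NT IP libraries. All of these profiles come from the same 12 libraries.

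The 12 nearest measured genes on either side stayed within 3.96-fold in either direction. Of the 12 neighbours, 5 rose and 4 fell in IP and 6 rose and 3 fell in total RNA. Over all genes 29.2% rose and 30.4% fell in IP, and 23.8% rose and 29.2% fell in total RNA. The neighbours are few, and nothing about these regions is read from their counts. Nrk, a kinase gene 68.7 kb from Serpina7, fell by 1.99 in IP and 1.02 in total RNA (log2, edgeR adjusted p = 1.59e-05 and 3.62e-05). Ciz1 and Ptges2, which flank Lcn2 at 6.32 and 8.15 kb, stood at log2 -0.21 and 0.03 in IP. Lrpap1, the chaperone of the Serpine2 clearance receptor Lrp1, is the nearest measured gene on one side of Cpz at 397 kb and rose by log2 0.63 in IP and 0.61 in total RNA. Scp2, 11.9 kb from Podn, rose by 0.57 and 0.53, and Cpt2 on its other side by 0.35 and 0.50. Gabarapl1, an autophagy gene and the nearest measured one on 1 side of Clec2d at 347 kb, rose by 0.86 and 0.54. Reads of Scp2 and Gabarapl1 are less certain, since 52.6% of the Scp2 transcript matched a pseudogene and 28.3% of the Gabarapl1 exon bases lie opposite another gene. The calls of Cul3 (in 12 of 22 alternative settings past the test in total RNA and 21 of 22 in IP), Trmt44 (21 and 19), A2ml1 (22 and 19), Ciz1 (20 of 22 in IP) and Pwwp3b (21 of 22 in total RNA) did not hold in every setting.

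**Figure D4:**
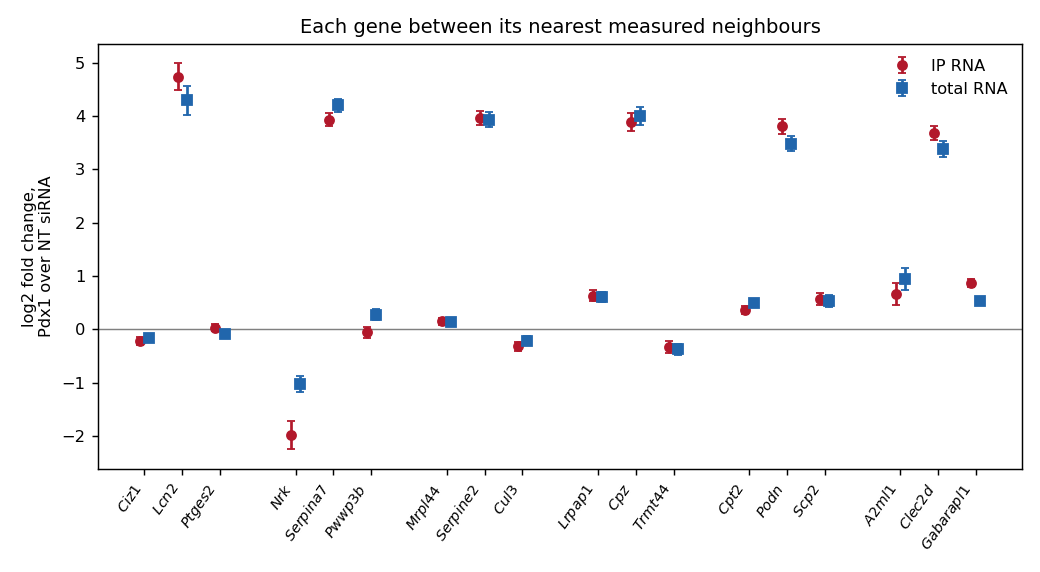
log2 fold change of Pdx1 over NT siRNA with its standard error, in IP (circles) and total RNA (squares), for each of the 6 genes between its nearest measured neighbours on the chromosome. The 6 genes stand at 3.39 to 4.74, and the neighbours between -1.99 and 0.95.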

How the data were processed

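Counts per RefSeq transcript were deposited by the authors as raw whole-number counts in 1 table per library, without normalization. Per the submitters' processing notes, which give no versions, TopHat2, featureCounts and mm10 were used; use of strand and of reads with several matches is not given in the sources used here. All 17133 transcripts were matched to symbols through RefSeq gene records of GRCm38.p6 (mm10); 295 without a symbol (0.577% to 0.834% of counts) were left out, and the transcript with the highest total stood for each of 12643 genes. Each of the 6 genes had 1 transcript. No transcript totalled less than 141 counts, and any with fewer are not analysed here.

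The 12 libraries entered one edgeR 4.0.16 quasi-likelihood fit (R 4.3.3) with a mean per group, TMM factors and the default expression filter, which removed 0 genes. P-values were adjusted by Benjamini-Hochberg over all genes, with a threshold of 0.05. CPM use TMM-scaled library sizes, and standard errors were derived from the fold change and the F statistic. Counts are PCR reads without molecular identifiers, so counting error is a lower limit. Lengths come from GENCODE M21, copies from minimap2 2.31 and figures from Python 3.11.15. The fit was tested on simulated data first.

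The members, the gene lists and the marker lists were chosen with earlier results of these data known. Named beside the members were, per list, up to 4 genes past the test the same way in both fractions averaging 1 CPM or more and with the largest mean change, plus known partners; the 8 genes most alike in pattern; genes next to the 10-fold limit averaging 5 CPM or more; and the nearest measured neighbours. Some genes of the lists are not reported here. Alternatives were RLE and upper-quartile factors, DESeq2 1.42.0, 2 other filters, omission of Ins1 and Ins2, a block by replicate number, fits on the compared groups, the mean of all transcripts, each library left out, and NT IP replicates 1 and 2 left out.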

Additional observations from a re-analysis of the deposited data

How the results depend on the processing

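The calls of the 6 genes for IP against total RNA kept their side of the threshold and, with 1 exception, their direction in every alternative run: Cpz with Pdx1 siRNA ran from -0.0097 to 0.25 (log2) with single libraries left out. Interaction estimates near 0 changed sign: Serpine2 stood at -0.0042 with Ins1 and Ins2 left out, -0.0292 with NT IP replicates 1 and 2 left out and -0.0070 with upper-quartile factors, and ran from -0.20 to 0.15 with single libraries left out, where Cpz ran from -0.28 to 0.0327. With NT IP replicates 1 and 2 left out, a fit that gives the lone NT IP library the spread of the other groups, the siRNA effect in IP was log2 3.62 for Podn and 3.52 for Clec2d, 4900 genes changed in IP (7542 otherwise), Ptges2 stood at -0.0646 and Pwwp3b at 0.18. Ptges2 ran from -0.0126 to 0.0809 with single libraries left out. The cause of these shifts was not tested.

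The number of interactions called depended most on the setting: 29 in the fit reported, 327 with DESeq2, 54 without Ins1 and Ins2, 5 with NT IP replicates 1 and 2 left out, 52 with upper-quartile factors and 4 to 571 with single libraries left out. With the replicate number as a block it was 373. Whether same-numbered libraries share a culture is not stated. Their deviations from the group means correlated across genes at -0.05 to 0.46 between the siRNAs in total RNA, at 0.0008 to 0.09 in IP, at 0.16, -0.05 and 0.51 between IP and total RNA with Pdx1 siRNA and at 0.15, 0.21 and 0.03 with NT siRNA. Since not every pair passed 0.1, no pairing was assumed, and these values leave a shared source of some pairs possible. None of the 6 genes was called for the interaction in any of these settings.

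List counts of genes that rose held within 1.5-fold, except that Tsku (1 gene) became 0 with NT IP replicates 1 and 2 left out and ran from 0 to 1 with single libraries left out. Counts of genes that fell were small and moved. In total RNA, serpins that fell were 1 (2 reported) with DESeq2, Ins1 and Ins2 left out, NT IP replicates 1 and 2 left out, RLE or upper-quartile factors or the compared groups alone. Lipocalin and iron genes that fell were 1 (3 reported) with Ins1 and Ins2 left out, RLE or upper-quartile factors or the compared groups alone. NF-kappaB, STAT3 and acute phase genes were 2 (5 reported) with DESeq2, upper-quartile factors or the compared groups, and 3 with RLE factors or NT IP replicates 1 and 2 left out. Thrombin, plasmin and urokinase genes were 3 with the compared groups alone. In IP, serpins that fell were 2 with the compared groups or the replicate block. With NT IP replicates 1 and 2 left out, 1 lipocalin or iron gene, 1 metallocarboxypeptidase, 1 thyroid and 3 Wnt genes fell. With single libraries left out, those that fell ran from 1 to 2 (serpins, both fractions), 3 to 5 (thrombin system, total), 1 to 3 and 1 to 5 (lipocalins and iron, total and IP), 0 to 2 and 0 to 1 (metallocarboxypeptidases, total and IP), 0 to 1 (C-type lectins, IP), 1 to 6 (NF-kappaB, total) and 3 to 5 and 3 to 7 (Wnt, total and IP).

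The 26 to 53 counts of Serpina7 and Cpz in NT libraries limit the precision of their ratios.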
